A study of Mus musculus with 20 samples.

Results

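The Cyp3a family of cytochrome P450 enzymes was followed in liver RNA of 20 male mice from 4 inbred strains. The members were Cyp3a11, Cyp3a13, Cyp3a16, Cyp3a25, Cyp3a41a, Cyp3a44 and Cyp3a59. A member was measured by the probe set annotated with its symbol alone, and by the probe set of highest mean over the 20 arrays where there was more than 1. Of the 7 members, 5 had such a probe set, among 19938 genes measured in that way. Cyp3a41a and Cyp3a59 were covered only by probe sets that carry several Cyp3a symbols, and those are described as shared probe sets.

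The strains, with 5 animals each, were NZO/Hl (NZO here), an obese and diabetes-prone strain, C57/Bl6 (called B6), 129P2/OlaHsd (called 129P2) and C3H from Jackson Lab. All animals were 6 weeks old and had been fed a high-fat diet (45% of calories from fat, 20% from protein, 35% from carbohydrate, 4.73 kcal/g) from weaning on day 21. The labels give the same diet to all strains and no treatment, so each difference below is one between strains on this diet. The title of the series concerns the knockdown of Nudt19, but none of these arrays was of a knockdown, and the arrays served to detect candidate genes.

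CYP3A enzymes sit in the endoplasmic reticulum of hepatocytes and enterocytes, where they oxidise drugs, steroids and bile acids with electrons from cytochrome P450 reductase and cytochrome b5. Their genes are switched on by the xenobiotic receptors PXR (gene Nr1i2) and CAR (Nr1i3), which bind DNA with RXR, and depend on liver factors such as HNF4A and FOXA. They are known to fall during inflammation. Cyp3a11 is the main member in adult mouse liver and the usual counterpart of human CYP3A4, while Cyp3a16 is known from fetal and newborn liver, and Cyp3a41a and Cyp3a44 for higher levels in females than males.

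Values are log2 signals, so 1 unit is a doubling. A value is called dim where it falls under its array's 40th percentile, which averaged 6.57 to 6.63 in the 4 strains. A list of 8 hepatocyte markers, Alb and Apoa1 among them, was measured in full, and none was dim in any strain. In limma's test 0 of the 8 were called in any comparison, with 0 to 3 at an unadjusted p under 0.05. The interquartile range of the arrays ran from 2.17 to 2.50, with NZO animal 1 at the upper end and C3H animal 3, 129P2 animal 2 and NZO animal 2 at the lower end. Differences were tested with limma over 14190 genes, and a gene is called where its Benjamini-Hochberg adjusted p is under 0.05. The 3 comparisons with NZO share the same 5 NZO animals and are not independent of each other.

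In gene order on chromosome 5, Cyp3a57, Cyp3a16, Cyp3a41b, Cyp3a41a, Cyp3a44, Cyp3a11, Cyp3a25 and Cyp3a59 form 1 cluster and Cyp3a13 lies apart from it. The 250 bases before the start of 5 members are shown because these members followed the strains in 3 different ways: Cyp3a11, Cyp3a44 and a probe set shared by Cyp3a41a moved together in B6, C3H and 129P2, Cyp3a25 took another order of strains, and Cyp3a13 was low in C3H. Sequences are from RefSeq, build GRCm38.p6, 5′ to 3′ in the direction of the gene, all from the minus strand. They lie at chr5:145879855-145880104 for Cyp3a11, chr5:145805875-145806124 for Cyp3a44, chr5:145720137-145720386 for Cyp3a41a, chr5:146009619-146009868 for Cyp3a25 and chr5:137921620-137921869 for Cyp3a13. Capitals mark matches, on either strand, to the nuclear receptor half-sites AGGTCA and AGTTCA.
Cyp3a11: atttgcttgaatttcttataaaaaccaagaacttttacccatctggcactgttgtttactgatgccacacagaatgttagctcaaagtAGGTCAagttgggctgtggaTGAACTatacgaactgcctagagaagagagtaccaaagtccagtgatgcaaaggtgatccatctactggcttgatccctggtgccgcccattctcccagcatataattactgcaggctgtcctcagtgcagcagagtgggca
Cyp3a44: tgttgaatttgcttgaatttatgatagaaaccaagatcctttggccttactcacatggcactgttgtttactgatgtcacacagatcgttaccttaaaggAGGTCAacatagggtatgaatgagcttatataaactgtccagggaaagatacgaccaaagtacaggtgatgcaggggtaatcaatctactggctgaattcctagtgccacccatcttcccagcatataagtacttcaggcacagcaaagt
Cyp3a41a: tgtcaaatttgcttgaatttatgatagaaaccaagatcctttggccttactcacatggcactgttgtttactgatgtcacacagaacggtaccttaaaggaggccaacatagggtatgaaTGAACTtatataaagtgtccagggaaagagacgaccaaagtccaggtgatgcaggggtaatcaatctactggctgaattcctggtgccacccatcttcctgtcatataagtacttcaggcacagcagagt
Cyp3a25: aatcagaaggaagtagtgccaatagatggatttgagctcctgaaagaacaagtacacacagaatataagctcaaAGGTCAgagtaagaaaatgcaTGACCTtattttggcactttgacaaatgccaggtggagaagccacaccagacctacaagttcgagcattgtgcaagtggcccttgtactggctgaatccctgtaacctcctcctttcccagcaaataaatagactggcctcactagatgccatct
Cyp3a13: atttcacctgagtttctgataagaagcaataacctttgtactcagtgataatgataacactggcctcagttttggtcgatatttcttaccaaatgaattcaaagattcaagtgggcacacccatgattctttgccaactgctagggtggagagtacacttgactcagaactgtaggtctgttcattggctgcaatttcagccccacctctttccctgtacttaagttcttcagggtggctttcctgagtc

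The motifs searched on both strands were the half-sites AGGTCA and AGTTCA, the FOXA core TGTTTAC, the STAT spacing TTCNNNGAA and the letters TATAAA. None of these overlapped another in the 9 Cyp3a windows. AGGTCA was in 5 of the 9 windows and in 14% of 32851 mouse windows of the same length, and AGTTCA was in 3 of 9 against 11.8%. The FOXA core was in 5 of 9 windows, those of Cyp3a11, Cyp3a16, Cyp3a41a, Cyp3a41b and Cyp3a44, against 3.17% of all. The letters TATAAA were in the same 5 windows, against 12.4% of all. TTCNNNGAA was in 0 of 9, against 7.02%. Cyp3a11 held both half-sites, Cyp3a25 held AGGTCA in 2 copies facing each other, and the Cyp3a13 window held none of the 5 motifs. These are matches of letters and not measured binding.

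**Figure D1:**
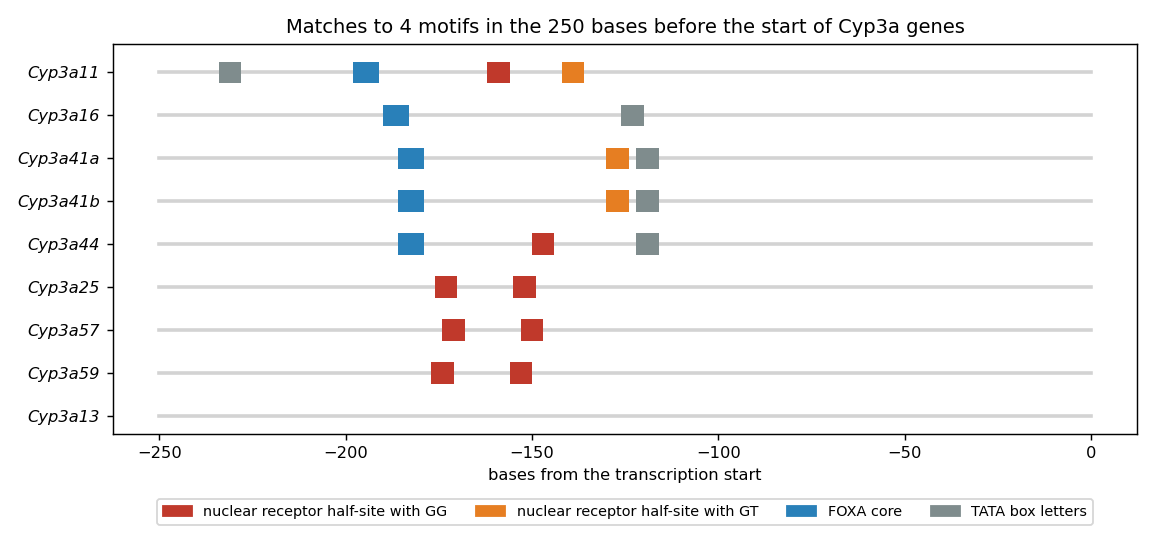
Matches to 4 motifs, on either strand, in the 250 bases before the start of 9 Cyp3a genes. The horizontal axis is the distance from the transcription start in bases and each coloured block is 1 match. Cyp3a11 and the genes of the Cyp3a16, Cyp3a41a, Cyp3a41b and Cyp3a44 type carry the FOXA core, the Cyp3a25 type carries 2 AGGTCA half-sites, and Cyp3a13 carries no match.

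Windows of near-identical copies make up groups within the family. Cyp3a41a and Cyp3a41b shared 99.6% of aligned bases, Cyp3a25 and Cyp3a59 94.8%, Cyp3a41a and Cyp3a44 94.4%, and Cyp3a16 and Cyp3a44 92.9%. Cyp3a11 shared 72.5% with Cyp3a44, 57.2% with Cyp3a13 and 55.6% with Cyp3a25. Copies so close can share probe sequence as well, and how far each probe set also takes up transcripts of another copy was not tested here.

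Cyp3a11, the main hepatic member, was lowest in NZO. The NZO animals 1 to 5 had Cyp3a11 signals of 10.89, 7.54, 9.32, 10.36 and 9.79. B6 animals had 11.46, 11.49, 12.21, 11.51 and 11.51. C3H animals had 11.68, 11.93, 11.30, 10.85 and 11.34, and 129P2 animals 11.62, 11.94, 11.60, 12.25 and 11.22. Every NZO animal lay below every B6 and 129P2 animal, and NZO animal 1 alone reached into the C3H range, just above C3H animal 4. The strain means were 9.58 ± 1.28 in NZO, 11.42 ± 0.41 in C3H, 11.63 ± 0.32 in B6 and 11.73 ± 0.39 in 129P2 (SD, n = 5 each).

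Against B6, Cyp3a11 was lower in NZO by 2.05 (SE 0.39, 95% interval 1.25 to 2.86, limma adjusted p = 0.00103), to 24.1% of the B6 level. Against C3H it was lower by 1.84 (1.03 to 2.64, limma adjusted p = 0.00356), to 28%, and against 129P2 by 2.15 (1.34 to 2.95, limma adjusted p = 6.70e-04), to 22.6%. The exact two-sided permutation test of 5 animals against 5 gave p = 0.00794 against B6 and 129P2, the smallest that 252 relabellings allow, and p = 0.0159 against C3H (adjusted over 24 such tests, 0.0212 and 0.0381). Among B6, C3H and 129P2 no difference in Cyp3a11 passed the test. The interval for C3H minus B6 ran from -1.02 to 0.59, that for 129P2 minus B6 from -0.71 to 0.90, and that for C3H minus 129P2 from -1.11 to 0.50, so differences of up to about a doubling are not excluded by these 5 animals a strain.

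**Figure D2:**
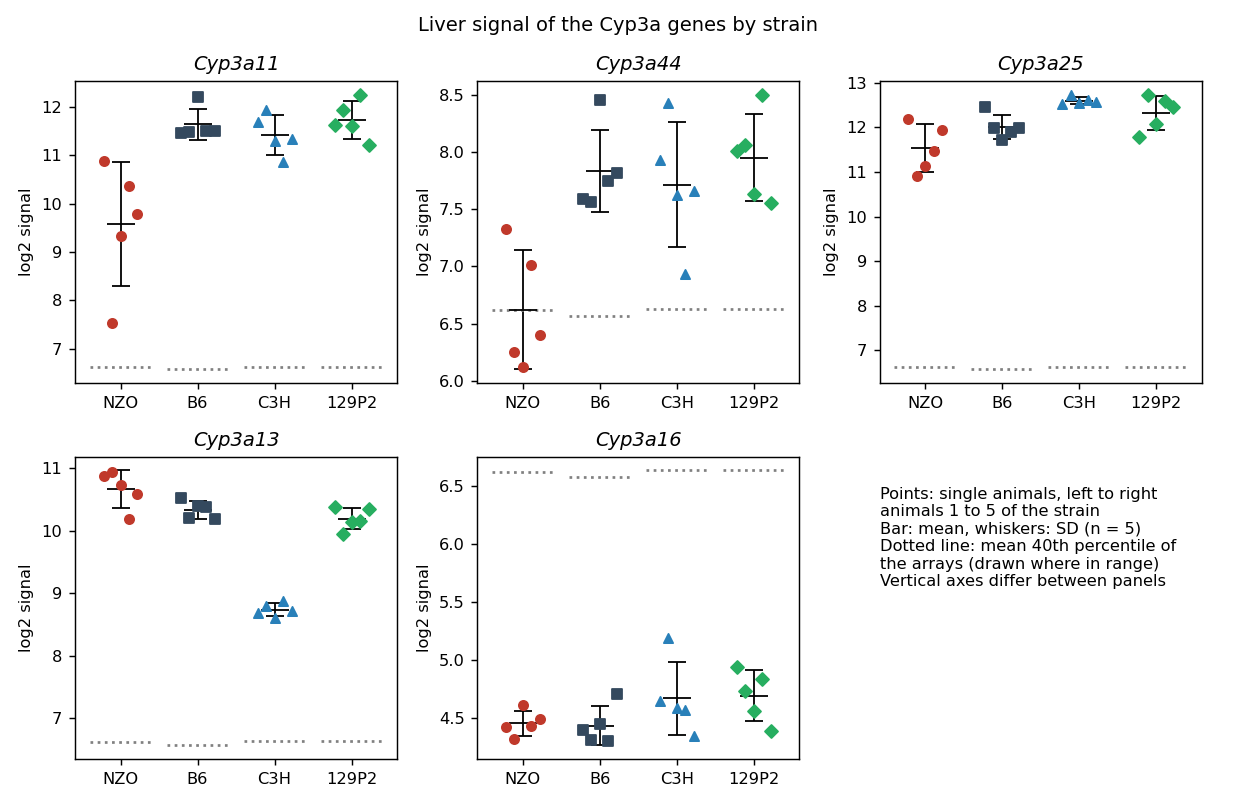
Log2 signal (vertical axes, which differ between panels) of the 5 members with a probe set of their own, by strain; each point is 1 animal, the bar is the mean and the whiskers the SD (n = 5), and the dotted line is the mean 40th percentile of the arrays. Cyp3a11 and Cyp3a44 were lowest in NZO, Cyp3a13 lowest in C3H, and Cyp3a16 lay under the dotted line in all 20 animals.

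The NZO animals also differed among themselves in Cyp3a11 far more than animals of the other strains. Their range of 3.35 log2 units is a 10.2-fold difference between animal 1 and animal 2, against 1.68-fold in B6, 2.12-fold in C3H and 2.05-fold in 129P2. The SD of 1.28 in NZO compares with a median of 0.14 over all tested genes in that strain, and only 3 of 14190 genes had a larger one. Without NZO animal 2, Cyp3a11 was still called against all 3 strains, with differences of -1.54 against B6, -1.33 against C3H and -1.64 against 129P2.

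Cyp3a44, a neighbour of Cyp3a11 in the cluster, showed the same order of NZO against the rest. NZO animals had Cyp3a44 signals of 7.33, 6.25, 6.12, 7.01 and 6.40, and 3 of these were dim. The B6 signals were 7.59, 7.56, 8.45, 7.75 and 7.82. C3H animals had 7.93, 8.43, 7.62, 6.93 and 7.66, and the 129P2 signals were 8.01, 8.06, 7.63, 8.50 and 7.55. All NZO values lay below all B6 and 129P2 values, while C3H animal 4 fell within the NZO range. Cyp3a44 was lower in NZO by 1.21 against B6 (SE 0.25, limma adjusted p = 0.00228), by 1.09 against C3H (limma adjusted p = 0.00655) and by 1.33 against 129P2 (limma adjusted p = 9.59e-04). With dim values raised to the 40th percentile of their arrays, the differences were -0.97, -0.85 and -1.08. No difference among the other 3 strains was called, and the interval of the largest, C3H minus 129P2 at -0.24, ran from -0.75 to 0.28.

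Cyp3a25, a member abundant in liver and intestine, took another order, with NZO lowest and C3H highest. NZO animals had Cyp3a25 signals of 12.19, 10.91, 11.14, 11.48 and 11.94. The B6 animals had 12.45, 11.98, 11.72, 11.90 and 11.99. C3H animals lay within 0.20 of each other at 12.53, 12.73, 12.55, 12.61 and 12.57, and 129P2 animals had 11.79, 12.72, 12.07, 12.58 and 12.45. Every C3H animal was above every NZO and every B6 animal, whereas NZO overlapped with B6 and 129P2. Cyp3a25 was lower in NZO than in C3H by 1.07 (SE 0.20, limma adjusted p = 9.95e-04), to 47.7%, and lower than in 129P2 by 0.79 (limma adjusted p = 0.0115), to 57.9%. The exact permutation p was 0.00794 against C3H (0.0212 adjusted over 24) and 0.0397 against 129P2, which did not pass after adjustment (0.0733). The difference from B6 of -0.48 did not pass (95% interval -0.89 to -0.06, limma adjusted p = 0.136), and without NZO animal 1 it was -0.64 with an adjusted p of 0.0257. C3H minus B6 was 0.59 with a limma adjusted p of 0.0687 and an exact permutation p of 0.00794 (0.0212 adjusted over 24). The call against 129P2 was lost without the 3 arrays of narrowest interquartile range, where the difference was -0.53 (limma adjusted p = 0.118).

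Cyp3a13, the member outside the cluster, ran the other way in NZO and was low in C3H. C3H animals had Cyp3a13 signals of 8.69, 8.80, 8.61, 8.87 and 8.72. The NZO animals had 10.88, 10.93, 10.73, 10.18 and 10.58. B6 animals had 10.52, 10.20, 10.39, 10.37 and 10.18, and 129P2 animals 10.37, 9.95, 10.14, 10.16 and 10.34. The highest C3H animal was more than 1 unit below the lowest animal of any other strain. C3H was lower than NZO by 1.92 (SE 0.12, 95% interval 1.68 to 2.17, limma adjusted p = 1.21e-10), a 3.79-fold difference. It was lower than B6 by 1.59 (limma adjusted p = 3.12e-09), to 33.1%, and lower than 129P2 by 1.45 (limma adjusted p = 1.57e-08), to 36.6%. Each of these comparisons gave an exact permutation p of 0.00794.

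NZO also exceeded 129P2 in Cyp3a13 by 0.47 (0.23 to 0.72, limma adjusted p = 0.0114), with overlapping animals. That call was lost without the 3 arrays of narrowest interquartile range (0.34, limma adjusted p = 0.0883). The difference from B6 was 0.33 (0.08 to 0.57) and did not pass (limma adjusted p = 0.0813), but it passed without NZO animal 4, at 0.45 (0.00648), and with quantile normalization, at 0.39 (0.0333).

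Cyp3a16 was dim on all 20 arrays, with signals from 4.30 to 5.19 and strain means of 4.45 (NZO), 4.44 (B6), 4.67 (C3H) and 4.69 (129P2). It was therefore not tested, and no order of strains is read from it. The probe set annotated with Cyp3a57 alone, a gene outside the member list, was dim on all arrays too.

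**Figure D3:**
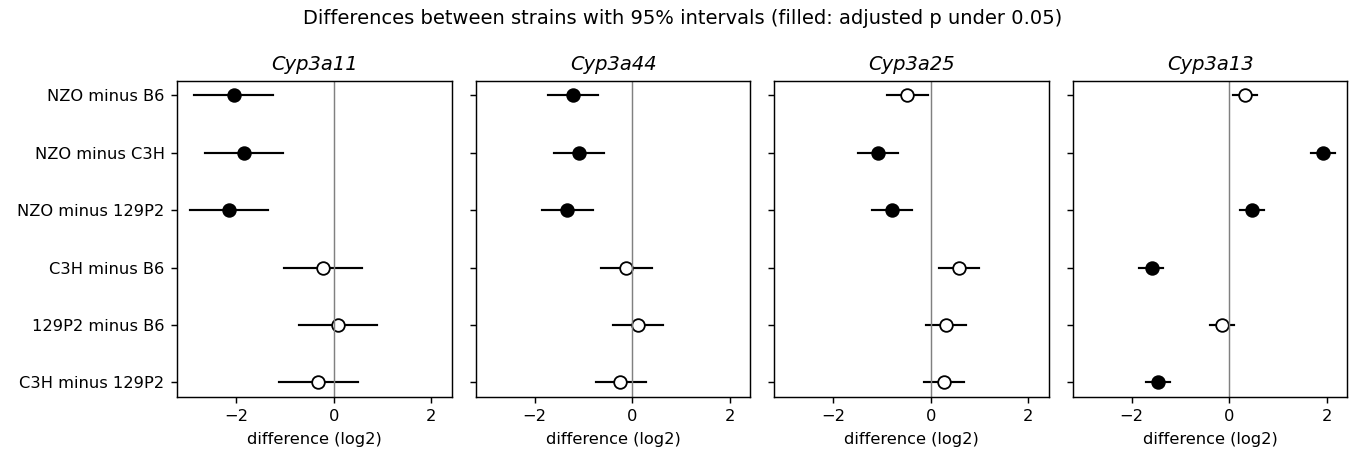
Differences in log2 signal between strains (horizontal axes) for the 4 tested members in 6 comparisons, with 95% intervals; filled points have a limma adjusted p under 0.05. The 3 cluster members lie left of 0 in each NZO comparison, and Cyp3a13 lies right of 0 there and far left of 0 where C3H is set against B6 or 129P2.

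Of the 4 tested members, 2 were lower and 0 higher in NZO than in B6, where 10.3% of all tested genes were called. Against C3H 1 was higher and 3 were lower (6.6% of all genes called), and against 129P2 likewise 1 and 3 (8.9%). C3H against B6 called 1 member, lower in C3H (8.05% of all genes), 129P2 against B6 called 0 (6.19%) and C3H against 129P2 called 1, lower in C3H (5.03%). For 129P2 against B6, 0 of the 4 members had an unadjusted limma p under 0.05. The median difference of the 4 members was -0.84 against B6, -1.08 against C3H and -1.06 against 129P2 in NZO, while the median over all genes was within 0.01 of 0. All 4 members passed the moderated F-test over the strains (limma adjusted p from 1.87e-10 for Cyp3a13 to 0.00222 for Cyp3a25), which 17% of all genes passed. Groups of animals did not overlap for 2 of 4 members in each NZO comparison, against 9.32%, 6.72% and 7.95% of all genes for B6, C3H and 129P2. Because this is whole liver, fewer cells of a type and less RNA per cell cannot be told apart in any of these differences. It was not tested whether the probes match the sequence of each strain equally well. A difference in signal is therefore not shown to be one in RNA amount.

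The shared probe sets gave a different picture of NZO. The probe set 10535669, shared by Cyp3a41a, Cyp3a41b and Cyp3a44, read 11.88, 8.92, 11.25, 10.72 and 8.55 in NZO animals 1 to 5. B6 animals read 9.58, 9.52, 10.17, 9.61 and 9.53, C3H animals 9.68, 10.05, 9.44, 8.80 and 9.36, and 129P2 animals 9.56, 9.90, 9.66, 10.31 and 9.27. In NZO, 3 animals lay above every animal of the other strains while animal 5 lay below all of them, so the strain spanned a 10.1-fold range. The NZO mean of 10.26 ± 1.46 was not called different from B6 (9.68 ± 0.27), C3H (9.47 ± 0.46) or 129P2 (9.74 ± 0.39), in a limma fit with the shared probe sets added after the data were seen. The intervals were wide, from -0.31 to 1.48 for NZO minus B6. Another probe set, 10535683, which lists Cyp3a11 as well, read 11.71, 9.22, 11.09, 10.51 and 8.53 in NZO and was not called there either (NZO minus C3H 0.80, limma adjusted p = 0.319), though without NZO animal 5 it was called higher than in C3H (1.22, limma adjusted p = 0.0279).

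Within each array, the difference between the shared probe set 10535669 and a single member was nearly constant outside NZO. Set against Cyp3a11, it was -1.96 ± 0.07 (SD) over the 15 B6, C3H and 129P2 animals, from -2.06 to -1.86. In NZO the same difference was 0.98, 1.38, 1.93, 0.36 and -1.24. Set against Cyp3a44, it was 1.80 ± 0.13 in the 15 animals, from 1.55 to 2.03, and 4.55, 2.67, 5.14, 3.71 and 2.14 in NZO, where Cyp3a44 was dim in animals 2, 3 and 5. With those dim values raised to the 40th percentile of their arrays, animals 2, 3 and 5 had 2.23, 4.61 and 1.90. For Cyp3a11, which was dim in no animal, every NZO animal lay outside the range of the other 15, also animal 5, whose shared signal was the lowest of all 20. For Cyp3a44 with dim values raised, 4 of the 5 NZO animals lay above that range and animal 5 lay within it. The exact permutation test of NZO against each other strain gave p = 0.00794 for the difference from Cyp3a11. For Cyp3a44 with dim values raised, exact permutation p was 0.0238 against B6, 0.00794 against C3H and 0.0159 against 129P2. The pattern was noticed in the data first. The level of 1 probe set against another has no meaning in itself, and only its change between animals is read here.

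**Figure D4:**
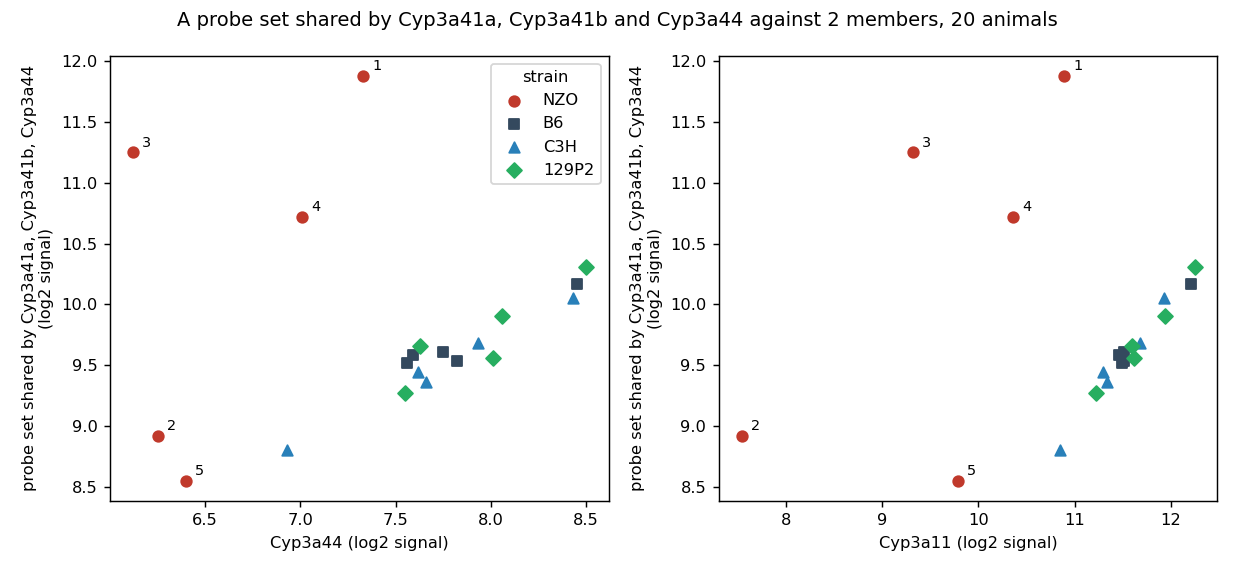
Log2 signal of the probe set shared by Cyp3a41a, Cyp3a41b and Cyp3a44 (vertical axes) against Cyp3a44 (left) and Cyp3a11 (right) in 20 animals; NZO animals carry their numbers. In the right panel the 15 animals of the other strains follow 1 line and the 5 NZO animals lie above it, apart from each other. In the left panel Cyp3a44 was dim in NZO animals 2, 3 and 5, and with dim values raised animal 5 falls within the range of the other strains.

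For Cyp3a59 the shared probe set 10527494, which also lists Cyp3a57 and Cyp3a25, followed Cyp3a25 closely. Because it lists Cyp3a25 itself, it gives no reading of Cyp3a59 alone. It read 11.06, 9.75, 10.04, 10.36 and 10.96 in NZO, with means of 10.43 ± 0.57 (NZO), 10.98 ± 0.30 (B6), 11.66 ± 0.04 (C3H) and 11.40 ± 0.48 (129P2). NZO was lower than C3H by 1.23 (limma adjusted p = 6.42e-04) and lower than 129P2 by 0.97 (limma adjusted p = 0.00504), and the difference from B6 of -0.55 did not pass (0.117). The difference from Cyp3a25 on the same array ran from -1.15 to -0.98 in NZO and from -1.12 to -0.68 in the other 15 animals.

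Single animals were compared by their deviations from their strain's mean, over 20 animals and 65 relations, with p-values from permutation within strains. Cyp3a11 and Cyp3a44 deviated together, with r = 0.75 (permutation p = 4e-05, adjusted 0.0013) and rho = 0.93 (adjusted 0.00065, raw p = 1e-05, the smallest the permutations can give). Without the 2 animals of most extreme Cyp3a11, both NZO, r was 0.90. Over the 15 animals of the other strains, where no Cyp3a44 value was dim, r was 0.96. With the interquartile range of the arrays taken out, r over all 20 was 0.63 (permutation p = 0.00528). Whether the Cyp3a44 probe set also takes up Cyp3a11 transcripts was not tested. Cyp3a25 and its shared probe set 10527494 gave r = 0.97 and rho = 0.91 (permutation p adjusted, 0.00065 and 0.00195), with r = 0.97 without the 2 extreme animals. That probe set lists Cyp3a25 itself, so this relation is not one between separate genes. Cyp3a11 and the shared probe set 10535669 had r = 0.98 over the 15 other animals, but 0.68 over all 20 (rho 0.62, permutation p adjusted 0.293 and 0.158) and 0.39 without the 2 extreme NZO animals. Cyp3a11 and Cyp3a25, neighbours in the cluster, were not shown to deviate together (r = 0.57, rho = 0.26, permutation p adjusted 0.302 and 0.745; r = 0.06 in the other 15 animals).

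Of 11 other genes set against the members, Saa2, a serum amyloid A acute phase gene, was the only one whose relation with a member passed the adjustment. Saa2 was not among the genes fixed by name and was added with its strain differences known. Its passing is therefore not the outcome of a fixed panel. Cyp3a11 was lower where Saa2 was higher (r = -0.48, permutation p adjusted 0.0145; rho = -0.64, adjusted 0.0262), with r = -0.66 without the 2 extreme animals and -0.76 over the 15 animals of the other strains. Cyp3a44 gave r = -0.67 (permutation p adjusted 0.0145) and rho = -0.66 (adjusted 0.0736), with r = -0.58 without its 2 extreme animals. With the interquartile range of the arrays taken out, r was -0.32 (permutation p = 0.181) for Cyp3a11 and -0.58 (permutation p = 0.0499) for Cyp3a44. The range itself had r = 0.61 with Cyp3a11 and 0.54 with Cyp3a44 (rho 0.58 and 0.59, permutation p adjusted 0.227 and 0.232 for r; r without 2 animals 0.28 and 0.33), and its part in these relations was not tested further.

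Among the listed regulators of Cyp3a genes, mostly nuclear receptors, liver factors and cofactors, calls came mainly against 129P2. The list shares 1 gene, a target rather than a regulator, with the list of PXR-responsive genes below. Against B6, 0 of 20 tested regulators were higher and 1 was lower (5% called, against 10.3% of all genes). Against C3H 0 and 0 were called (6.6% of all genes), and against 129P2 2 and 3, or 25% against 8.9% of all genes. The median differences were -0.11, -0.05 and -0.08. At an unadjusted limma p under 0.05 there were 3, 5 and 5 of them. Nr1i2, the gene of PXR, had means of 8.91 ± 0.12 (NZO), 9.05 ± 0.06 (B6), 8.84 ± 0.07 (C3H) and 9.03 ± 0.14 (129P2), and was called in no comparison with NZO. Hnf4a, which encodes a master regulator of hepatocytes, was 12.01 ± 0.06 in NZO and 11.87 ± 0.11 in B6, also not called. Nr1i3, the gene of CAR, read 8.84, 9.36, 9.98, 8.71 and 9.62 in NZO and 10.01, 10.98, 10.82, 10.54 and 10.79 in 129P2, without overlap. It was lower in NZO than in 129P2 by 1.32 (limma adjusted p = 0.0013), but the differences from B6 (-0.38, adjusted 0.363) and C3H (-0.78, adjusted 0.0782) did not pass. Foxa3, which encodes a liver transcription factor, was higher in NZO than in 129P2 by 0.73 (limma adjusted p = 9.26e-04). Ppargc1a, a coactivator, was lower in NZO than in 129P2 (-0.62, limma adjusted p = 0.0138) and than in B6 (-0.56, 0.0252). The Ppargc1a call against B6 was lost in 8 of 33 alternatives, among them the fit with array spread added, and without NZO animal 3 or 4 or B6 animal 3 or 4.

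Other genes known to respond to PXR ligands, a list without the Cyp3a genes, were lower in NZO more often than higher. Of 18 tested, 2 were higher and 11 lower than in B6, 2 and 8 than in C3H, and 1 and 10 than in 129P2, while 6.64%, 3.09% and 4.61% of all genes were called lower. The medians of the list were -0.75, -0.78 and -0.67. Cyp2c37, a cytochrome P450 of the Cyp2c group, had differences of -2.36 against B6 and -2.70 against C3H (limma adjusted p = 9.60e-08 and 1.75e-08). Cyp2c29, of the same group, had -1.80, -2.49 and -2.55 against B6, C3H and 129P2 (limma adjusted p from 1.56e-05 to 8.60e-04). Gstm3, a glutathione transferase, had -1.91 against B6 and -2.25 against 129P2. Abcc3, a hepatic efflux pump, had -1.89 against C3H, and Slco1a4, an uptake carrier, -2.06 against 129P2, all of them called.

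Some members of that list went the opposite way. Aldh1a7, an aldehyde dehydrogenase, was higher in NZO by 0.83, 0.97 and 0.91 against B6, C3H and 129P2 (limma adjusted p = 5.27e-04, 1.01e-04 and 2.07e-04). Abcb1b, a P-glycoprotein efflux pump, was dim in all B6 and C3H animals. It was at least 2.22-fold higher in NZO than in B6 and at least 2.13-fold higher than in C3H, bounds set against the 40th percentile (limma adjusted p = 9.85e-07 and 2.30e-07). Against 129P2 it was not called. The counts of lower genes in this list stayed between 8 and 11 with array spread as a covariate and without NZO animal 2. Calls in this list were not limited to NZO. In C3H against 129P2, 0 were higher and 7 lower (38.9%, against 5.03% of all genes), where Cyp3a11 was not called (-0.31, limma adjusted p = 0.769). In C3H against B6, 0 were higher and 2 lower (11.1% against 8.05%). In 129P2 against B6 there were 2 and 2 (22.2% against 6.19%).

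**Figure D5:**
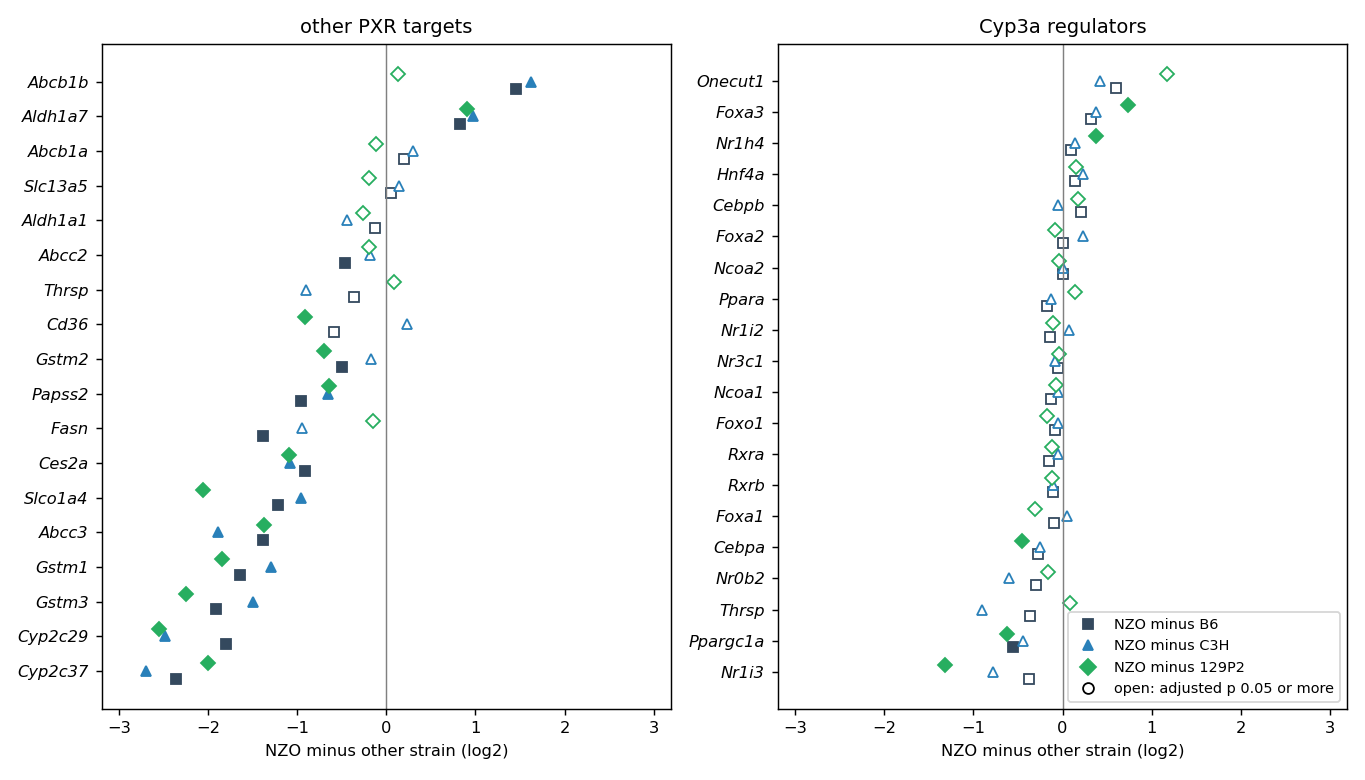
Differences in log2 signal between NZO and each other strain (horizontal axes) for the 18 tested genes known to respond to PXR ligands and the 20 tested regulators of Cyp3a genes, 1 row per gene; filled points have a limma adjusted p under 0.05. Most PXR-responsive genes lie left of 0, while the regulators lie on both sides of it.

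Calls among the partners that CYP3A enzymes need were few and went both ways over the NZO comparisons. Among 14 tested genes for electron donors and haem, 1 was higher in NZO and 1 lower against B6, 0 and 1 against C3H, and 2 and 1 against 129P2. These are 14.3%, 7.14% and 21.4% of the list, against 10.3%, 6.6% and 8.9% of all genes. Cyb5a, which encodes cytochrome b5, was lower in NZO by 0.37 against B6 (limma adjusted p = 0.014) and 0.49 against 129P2 (0.0014). Alad, an enzyme of haem synthesis, was lower by 0.49 against C3H and higher by 0.74 against B6 and 0.64 against 129P2. Alas1, the first enzyme of that pathway, differed widely among animals of each strain (SD from 0.68 in C3H to 1.53 in 129P2) and was called in no NZO comparison.

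Because several Cyp3a genes are known for higher levels in females and for control by growth hormone, lists on both were read beside them in these males. Against B6, 0 of 11 tested female-biased genes were higher in NZO and 3 lower, against C3H 1 and 0, and against 129P2 0 and 2. Of 25 male-biased genes, 8 were higher and 2 lower than in B6, 2 and 2 than in C3H, and 7 and 1 than in 129P2. The shares of all genes called higher were 3.63%, 3.51% and 4.29%, and those called lower 6.64%, 3.09% and 4.61%. Cyp17a1, a steroid hydroxylase of the female-biased list, was lower in NZO by 1.52 against B6 and by 1.25 against 129P2 (limma adjusted p = 4.25e-05 and 4.18e-04), and Cyp4a12a, of the male-biased list, was higher by 1.11 against B6 (1.24e-04). With array spread as a covariate or without NZO animal 2, the male-biased list had 5 higher and 1 lower than in B6. Leaving out any 1 animal, the number called in that list ran from 6 to 11 against B6, 2 to 6 against C3H and 7 to 11 against 129P2, and that of the female-biased list from 2 to 3 against B6 and 0 to 1 against C3H, staying at 2 against 129P2. Stat5b, Bcl6 and Cux2, from the list on growth hormone signalling, were called in no NZO comparison. Of the 15 genes of that list 1 was called against B6, 0 against C3H and 1 against 129P2. In the same comparisons 10.3%, 6.6% and 8.9% of all genes were called.

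Perinatal and pericentral genes were read for the same reason, since Cyp3a16 marks the newborn liver and CYP3A enzymes are known from the zone around the central vein. Of 9 perinatal genes, 1 was higher and 3 lower than in B6, 1 and 1 than in C3H, and 0 and 2 than in 129P2. Of 17 pericentral genes, 1 was higher and 2 lower than in B6 and in C3H, and 1 and 1 than in 129P2, in comparisons where 10.3%, 6.6% and 8.9% of all genes were called. Without NZO animal 2 the pericentral list had 1 higher and 0 lower than in B6, and leaving out any 1 animal the number called there ran from 1 to 5. Leaving out any 1 animal, the perinatal list had 3 to 4 called against B6 and 1 to 2 against C3H. Glul and Cyp2e1, both pericentral, were called in no NZO comparison.

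Acute phase genes were called higher in NZO more often than lower, and markers of other cell types were counted in the same comparisons. Against B6, 18 of 24 acute phase genes were higher in NZO and 1 lower, against C3H 15 and 1, and against 129P2 13 and 1, while 3.63%, 3.51% and 4.29% of all genes were called higher. Saa2 was higher by 4.12, 3.26 and 2.51 (limma adjusted p = 2.12e-06, 5.43e-05 and 9.60e-04), and Hamp, which encodes the iron hormone hepcidin, was the lower one (-2.07, -1.72 and -1.84). NZO animal 2, the lowest in Cyp3a11, had the highest Saa2 (13.67) and Lcn2 (13.27) of the strain and the lowest Hamp (9.42). NZO animal 1, the highest in Cyp3a11, had the lowest Saa2 (12.77) and Lcn2 (9.68) and the highest Hamp (13.08). Hamp ranks among the 3 genes closest to Cyp3a11 over these arrays, so its match is no separate observation. Saa2 and Lcn2 were picked with results known, and the rest of the list is not shown by animal. The arrays of animals 1 and 2 had the widest and narrowest interquartile range of NZO, 2.50 and 2.20. The part of array spread in these extremes was not tested. Without NZO animal 2 the list had 14, 12 and 13 higher genes.

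Endothelial markers were lower in NZO in 6 of 8 cases against B6, 4 against C3H and 5 against 129P2, and 0 were higher. Of all genes, 6.64%, 3.09% and 4.61% were called lower, shares that also stand beside the stellate counts below. Their summed linear signal was 2656 to 3742 in NZO animals, 3809 to 5450 in B6, 3578 to 4865 in C3H and 3870 to 4960 in 129P2, and none was dim in all animals of a strain. The count against B6 was 3 with array spread as a covariate and also 3 without NZO animal 2. Against C3H and 129P2 the covariate gave 6 and 7, where 4.95% and 7.43% of all genes were called lower. Without NZO animal 2 the counts there were 4 and 4. Of 8 stellate cell markers, 4, 2 and 3 were lower and 0 higher, with sums of 2960 to 4346 in NZO, 3863 to 6918 in B6, 4540 to 5003 in C3H and 4387 to 5492 in 129P2. Without NZO animal 2 the stellate counts were 2, 0 and 2. Of 8 neutrophil markers, 4 were dim everywhere (S100a8, Ly6g, Cxcr2 and Retnlg). Of the 4 tested, Lcn2, which is also on the acute phase list, and S100a9 were higher in NZO than in B6. Against C3H and 129P2 limma called 0 (2 and 1 at an unadjusted p under 0.05), and without NZO animal 2 also 0 against B6. For all 8, the sum was 1524 to 10519 in NZO animals, 984 to 1493 in B6, 852 to 3164 in C3H and 1320 to 2920 in 129P2. Lcn2 alone made up 53.8% to 94% of that sum in NZO. Without it the sum was 586 to 703 in NZO animals, 461 to 519 in B6, 485 to 577 in C3H and 516 to 565 in 129P2. Lists for Kupffer cells, cholangiocytes, lymphocytes and intestinal epithelium had at most 1 called gene each per NZO comparison. In those comparisons 10.3%, 6.6% and 8.9% of all genes were called. The part of any of these lists in the Cyp3a differences was not tested.

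The genes most like each member over the 20 arrays were ranked among 13214 genes by the root mean square difference of centred log2 values, as a description without a test. Where a gene was dim in some animals its distance rests partly on values near background, so the ranks were also taken with dim values raised to the 40th percentile. Cyp3a11, which varied by 1.09 around its mean, was closest to Inmt (0.46), an indole N-methyltransferase, Akr1c12 (0.54), an aldo-keto reductase, and Hamp (0.56). Akr1c12 was dim in 3 of 5 NZO animals, and with dim values raised it ranked 8 (0.63). Inmt had the same extremes within NZO, 11.03 in animal 1 and 7.51 in animal 2. Since Inmt was ranked on these same values, that is no separate observation. For Cyp3a13, with 0.76 of its own, the closest were Hsd17b13 (0.22), a lipid droplet dehydrogenase, C4b (0.24), a complement gene, and Plscr2 (0.29), a phospholipid scramblase. All 3 had their lowest mean in C3H: Hsd17b13 was 10.74 there against 12.32 to 12.45 elsewhere. Plscr2 was dim in 4 of 5 C3H animals and kept its rank with dim values raised (0.28). Cyp3a25 (0.51) was closest to Spp2 (0.30), Ces2a (0.30), a carboxylesterase known to respond to PXR, and Gpr12 (0.34), which was dim in 4 of 5 NZO animals and ranked 18 (0.38) with dim values raised. Cyp3a44 (0.67) was closest to Adgrl4 (0.39), a receptor known from endothelium, Clec2d (0.40) and Cibar1 (0.40). With its own 3 dim NZO values raised, Cibar1 (0.33) ranked 1, Adgrl4 (0.34) ranked 3 and Clec2d (0.43) ranked 122.

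The nearest tested genes beside the members were read in the same comparisons. Of 12 tested neighbours of the cluster, 6 on each side, 3 were called in any of the 6 comparisons and 2 in a comparison with NZO. Single comparisons called from 5.03% to 10.3% of all genes, and the share called in any of several comparisons was not computed. Gpr12, the fifth gene after the cluster, followed the order of Cyp3a25, at -1.01 for NZO minus C3H and 0.72 for C3H minus B6 (limma adjusted p = 4.92e-06 and 4.07e-04). With 4 of 5 NZO values and 1 of 5 B6 values dim, the differences with dim values raised were -0.83 and 0.71. Of 12 neighbours of Cyp3a13, 5 were called in any comparison and 4 in one with C3H. Gjc3, the first gene after Cyp3a13, was higher in C3H than in B6 by 0.92 (limma adjusted p = 1.50e-05), opposite to Cyp3a13. Zscan21, the fourth gene after it, was lower in C3H in each comparison. It had NZO minus C3H at 0.39, C3H minus B6 at -0.33 and C3H minus 129P2 at -0.32 (limma adjusted p = 0.00136, 0.007 and 0.00975). Pilra and Pilrb1, before Cyp3a13, had C3H minus B6 at -0.51 and -0.50 (limma adjusted p = 0.0152 and 0.0244). Neither was called between C3H and NZO or 129P2. What the neighbours share with Cyp3a13 was not tested.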

How the data were processed

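Per the submitters' processing notes, the authors made the deposited log2 values by robust multi-array average (RMA) in Affymetrix Expression Console, with versions not stated. RNA with an integrity number above 8, 150 ng per animal, was hybridized to 1 array each (20 arrays, a number that limits precision). The values were used as deposited. Animal numbers follow the order of the samples.

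The platform annotation gave 1 symbol to 21789 of 35556 probe sets and several to 1621, and 12146 were unnamed here. Testing a gene required 5 arrays above their own 40th percentile, which left 14190 of 19938. The model, fitted in limma 3.58.1 (R 4.3.3), had 1 mean per strain, an intensity trend and no covariate (16 residual and 6.37 prior degrees of freedom), and by exact permutation for the members. Correlations used 100000 permutations within strains. The fit was tested on simulated data. Promoter windows were aligned with Biopython 1.88 and figures drawn with matplotlib 3.10.9 (Python 3.11.15).

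All 7 members could be named. So could up to 3 called genes each way per list and comparison, 11 genes fixed by name, the 6 nearest tested genes on each side, and the 3 genes most like each member. Inmt, Lcn2, Saa2 and Hamp values by animal and the marker genes were given with results known. Members and lists were chosen with earlier results of these data known. Alternatives were another filter, normalization, moderation, threshold or covariate, and leaving out each animal or the 3 arrays of narrowest spread. Fits with the shared probe sets, list counts under other settings the within-array differences and the values with dim signals raised were added after the data were seen.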

Additional observations from a re-analysis of the deposited data

Results flagged for a closer look

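B6 animal 3 stood apart from the other 4 animals of its strain in 4 of the 8 B6 groups examined (of 32 over the 4 strains, where no other group had such an animal), by the gap to its nearest neighbour as a share of the range (Dixon's critical value of 0.71). Its Cyp3a11 signal was 12.21, its Cyp3a44 signal 8.45, and the shared probe sets 10535669 and 10535683 read 10.17 and 10.08, each the highest of the strain. Chance flags about 1 group in 20. The 4 values come from 1 animal and from genes that deviate together, so they are not 4 separate findings. The same animal had the lowest Glul (11.01), Cyp2e1 (13.44), Nr1i3 (9.02) and Ces2a (9.49) of the strain and the highest Bcl6 (9.87). Its array also had the widest interquartile range of the strain (2.48). What these values have in common was not tested.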

How the results depend on the processing

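Over 33 alternatives, Cyp3a11 kept its call in each NZO comparison (-2.38 to -1.54 against B6, -2.17 to -1.33 against C3H, -2.47 to -1.58 against 129P2), as did Cyp3a13 against C3H (1.82 to 2.04). The 4 members called between NZO and 129P2 were 2 in a test against a fold of 1.2, 2 at an adjusted p of 0.01 and 2 without the 3 arrays of narrowest spread. The 1 member called between C3H and B6 was 2 with array weights, 2 with only the compared strains in the fit, and 1 to 2 without 1 animal. Cyp3a44 lost its call against C3H in the test against a fold of 1.2 (-1.09, limma adjusted p = 0.0844). Some differences that were not called changed sign. With array spread as a covariate, C3H minus B6 was 0.39 for Cyp3a11, 0.22 for Cyp3a44, 0.38 for probe set 10535669 and 0.32 for probe set 10535683. Without 1 animal, C3H minus B6 in Cyp3a44 ran from -0.30 to 0.08. Leaving out 1 animal, 129P2 minus B6 ran from -0.04 to 0.23 for Cyp3a11, -0.02 to 0.27 for Cyp3a44, -0.08 to 0.18 for probe set 10535669 and -0.05 to 0.20 for probe set 10535683, each below 0 only without 129P2 animal 4. The causes were not tested. Probe sets dim on all arrays, such as that of Cyp3a16, limit what can be said of those genes. No paired analysis was made, because the labels pair no animal of a strain with an animal of another strain.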
